A study of Mus musculus with 2 samples.

Results

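Scavenger receptors and the surface markers of resident macrophages were followed in macrophages sorted from mouse hearts after ischemia–reperfusion (IR), in which a coronary artery is tied and then released. The 10 genes were chosen by name, as Folr2, Lyve1, Cd163, Fcrls, Stab1, Msr1, Marco, Cd36, Scarb1 and Lrp1, out of 19505 genes with a named probe set. Each had 1 probe set with a single gene symbol, so no choice between probe sets was needed. MHCII+ macrophages and MerTK- macrophages were taken from hearts of wild-type male C57BL/6 mice aged 10 weeks, and both were sorted inside the same CD45+CD11b+ gate after IR. Each population had 1 array, made from the pooled cells of several hearts, and the labels and methods do not state how long after IR the sort was done. Replicate error could not be measured, so no p-value is given, and a difference is only as precise as 2 single arrays allow. The study places its MHCII+ cluster among MerTK+ resident macrophages, but its methods do not say that the MHCII+ sort also used MerTK. Populations sorted on Lyve1 and Trem2 were not analysed here, and whether cells carrying LYVE1 protein were kept out of the MHCII+ sort is not given.

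Scavenger receptors are surface proteins through which macrophages take up modified lipoproteins, debris, haemoglobin, apoptotic cells and microbes, and they are grouped in classes by their structure. Tissue-resident macrophages of the heart are recognised by surface proteins such as FOLR2, LYVE1 and CD163, which freshly recruited monocytes mostly lack. Other receptors, such as MSR1, CD36 and LRP1, are shared by resident and recruited macrophages and by several other cell types. Some of these proteins bind known ligands, including folate (FOLR2), hyaluronan (LYVE1), haptoglobin–haemoglobin complexes (CD163), oxidised lipoproteins (MSR1, CD36), high-density lipoprotein (SCARB1) and a large set of protease complexes and lipoproteins (LRP1).

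The values are log2 intensities as the authors deposited them, and each difference is MHCII+ minus MerTK-. A gene was taken as above the floor if the brighter of its values passed the 95th percentile of 1452 sensory receptor probe sets (smell, taste and vomeronasal) on its array, which was 4.23 for MHCII+ and 4.67 for MerTK- macrophages. Where the lower value was at or under its floor, the fold was taken against the floor and is given as "at least". All 10 genes were above the floor by this rule, as were 10521 genes (53.9%) of the whole array, and 8 of the 10 were above it on both arrays. Values of the 2 arrays reached 19.8 and 19.4, beyond the 16 that a 16-bit scanner can give, so folds hold on the deposited scale only. The sort showed in its own genes, since the MHC class II genes H2-Aa (16.71 and 8.39), H2-Eb1 (14.88 and 7.69) and H2-Ab1 (16.95 and 10.14), their activator Ciita (8.17 and 4.79) and Mertk (8.77 and 5.97) were all brighter in MHCII+ than in MerTK- macrophages. Genes of the gate and of macrophages in general, Ptprc, Itgam, Adgre1, Csf1r, Fcgr1 and Lyz2, were less than 2-fold apart. So were the monocyte genes Ccr2 (16.15 in MHCII+ and 15.18 in MerTK-) and Ly6c2 (17.21 and 17.88). Ccr2 was bright on both arrays and 1.95-fold higher in MHCII+ macrophages, whereas the study counts its MHCII+ cluster among MerTK+CCR2- macrophages.

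The 300 bases around the transcription start of resident marker genes are shown because Folr2, Fcrls and Cd163 were higher together in MHCII+ macrophages, and that of Marco because it was the member that was not. They run from 250 bases before to 50 bases after the start, are read 5′ to 3′ on the strand of the gene, and come from RefSeq on build GRCm38.p6, whose table held 7 of the 10 genes (8 starts). Capitals mark a match to any of 7 motifs searched on both strands: GAGGAA (the core site of PU.1, a factor of all macrophages), TGANTCA (AP-1), TGACGTCA (CRE, the site of ATF factors), TGCTGA (a half-site of MAF factors), TTC followed by any 4 bases and then GAA (a STAT6 site), CACGTG (MITF and TFE) and the core promoter box TATAAA. No match overlapped another in the sequences shown. Folr2 has 2 starts in the table, at chr7:101857141-101857440 and chr7:101845282-101845581 (both minus strand), Fcrls lies at chr3:87263475-87263774 (minus strand), Cd163 at chr6:124304401-124304700 (plus strand) and Marco at chr1:120504975-120505274 (minus strand).
Folr2, first start: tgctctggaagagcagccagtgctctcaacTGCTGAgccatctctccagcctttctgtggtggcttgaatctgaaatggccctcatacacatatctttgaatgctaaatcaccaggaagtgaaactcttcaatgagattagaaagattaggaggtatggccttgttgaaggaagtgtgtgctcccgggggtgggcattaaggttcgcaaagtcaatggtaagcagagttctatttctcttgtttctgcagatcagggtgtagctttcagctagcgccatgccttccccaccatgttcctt
Folr2, second start: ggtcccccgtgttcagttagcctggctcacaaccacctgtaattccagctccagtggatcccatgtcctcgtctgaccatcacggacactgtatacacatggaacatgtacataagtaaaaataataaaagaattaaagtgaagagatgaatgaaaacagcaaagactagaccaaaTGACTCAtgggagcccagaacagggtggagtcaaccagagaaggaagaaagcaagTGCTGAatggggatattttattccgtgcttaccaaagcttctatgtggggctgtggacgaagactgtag
Fcrls: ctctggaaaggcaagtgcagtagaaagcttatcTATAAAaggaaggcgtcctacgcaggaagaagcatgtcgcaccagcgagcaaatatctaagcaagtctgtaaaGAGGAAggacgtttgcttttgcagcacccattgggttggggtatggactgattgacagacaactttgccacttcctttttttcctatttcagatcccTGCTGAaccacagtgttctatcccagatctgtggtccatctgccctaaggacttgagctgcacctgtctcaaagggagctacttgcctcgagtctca
Cd163: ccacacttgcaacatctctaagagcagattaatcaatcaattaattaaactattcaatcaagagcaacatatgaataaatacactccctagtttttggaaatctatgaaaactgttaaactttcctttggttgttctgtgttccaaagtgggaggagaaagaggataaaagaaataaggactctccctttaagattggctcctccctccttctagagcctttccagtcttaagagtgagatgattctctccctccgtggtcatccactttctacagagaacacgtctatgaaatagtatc
Marco: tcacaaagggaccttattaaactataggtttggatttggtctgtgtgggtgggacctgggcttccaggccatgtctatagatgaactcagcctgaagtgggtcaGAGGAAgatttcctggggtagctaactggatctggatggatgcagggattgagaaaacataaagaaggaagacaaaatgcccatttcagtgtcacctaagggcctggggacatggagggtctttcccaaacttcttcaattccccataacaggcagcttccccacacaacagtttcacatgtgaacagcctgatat

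The MAF half-site was found in 5 of the 8 windows, those of Folr2 (both starts), Fcrls, Stab1 and Cd36, and in 19.5% of the 32851 windows of the table. In Fcrls it lay 47 bases before the start, and in Folr2 it lay 220 bases before the first and 19 before the second start. The PU.1 core was found in 3 windows (Fcrls, Stab1 and Marco) and in 28.3% of all. The AP-1 motif stood in 1 window, at the second Folr2 start, 74 bases before it (7.81% of all). The STAT6 motif stood in that of Cd36, 20 bases after the start (6.95%). The letters TATAAA stood in that of Fcrls, 217 bases before the start (13.6%). Neither the CRE motif (1.79% of all windows) nor CACGTG (7.15%) was found in any of the 8. The Cd163 window held no match to any motif, with a GC content of 38.0% and 2 CpG dinucleotides, against a median of 52.7% and 7 over all windows. Lrp1 had 67.7% GC and 16 CpG, and 6 of the 8 windows lay below the median GC content. A match is a run of letters and not a measured binding site.

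The 10 genes were mostly higher in MHCII+ macrophages. As deposited, 9 had the higher value there and Marco the lower, and against the floor 6 (60.0%) passed 2-fold upwards and 0 were at least 2-fold lower. The upward count was 2 with a floor from negative-control probe sets, which left 7 of the genes with a value. Of all genes above that floor, 8.67% passed 2-fold upwards. After centring the arrays on hybridization controls the count was 9, beside 49.1% of all genes above the floor. At the floor used here and without centring, 11.8% (higher) and 6.0% (lower) of all 10521 genes above the floor passed 2-fold. The median difference was 1.39 over the 10 genes and 0.15 over all genes above the floor (0.055 with lower values set at the floor). The members at least 2-fold higher were Folr2, Fcrls, Lyve1, Cd163, Lrp1 and Msr1, and those less than 2-fold apart were Stab1, Cd36, Scarb1 and Marco. Since the genes were chosen with earlier results of these arrays known, the excess over all genes is a description.

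**Figure D1:**
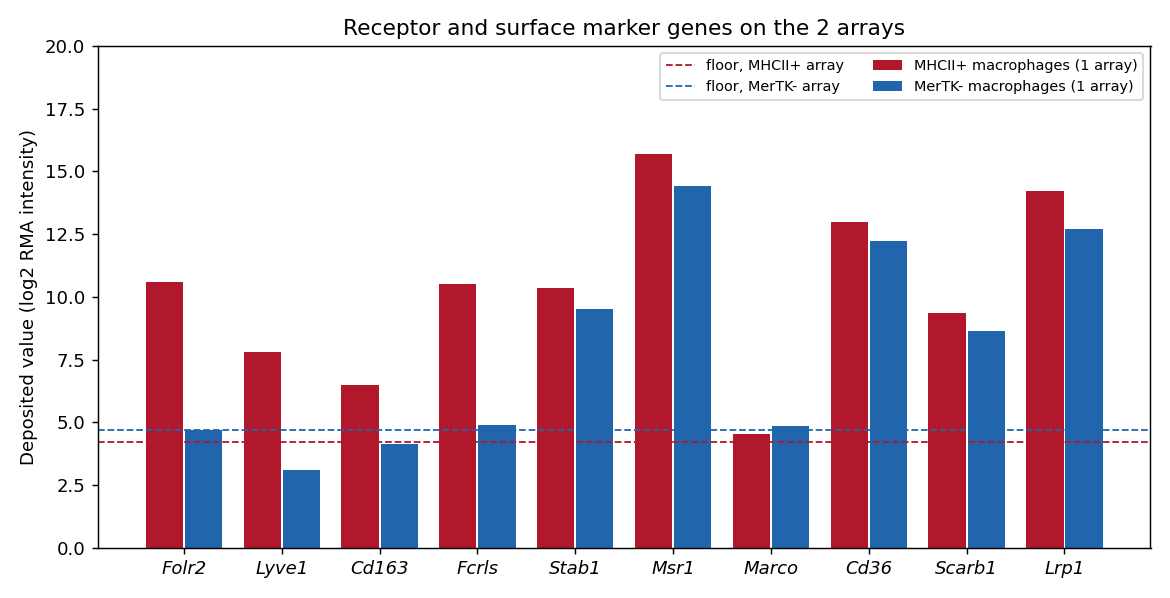
Deposited log2 intensity of each of the 10 genes in MHCII+ (red, left) and MerTK- macrophages (blue, right), 1 array each, with the floor of each array as a dashed line. The 4 resident markers are at or near the floor in MerTK- macrophages, from 3.08 to 4.89, while Msr1, Lrp1 and Cd36 are above 12 in both populations.

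As deposited, the 4 resident surface markers had the largest differences of the 10 genes. Folr2, a folate-binding protein held in the membrane by a lipid anchor, had a value of 10.57 in MHCII+ and 4.68 in MerTK- macrophages. The MerTK- value stood 0.0026 above the floor, and the fold was 59.6. The difference of 5.90 depended on the floor, and was 5.33 with the floor at the 99th percentile of the sensory receptor genes and 0.91 with a floor from negative-control probe sets. Fcrls, a member of the Fc receptor-like family known in mice as a gene of microglia and other resident macrophages, had values of 10.53 and 4.89, a 49.7-fold difference, with the MerTK- value 0.22 above the floor. Its difference of 5.63 was 5.28 and 0.86 with those other floors. Against the floor, among all genes above it, 3 had a larger difference than Folr2, namely H2-Aa, H2-Eb1 and H2-Ab1, the class II genes of the sort itself.

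Lyve1 and Cd163 were the members not above the floor in MerTK- macrophages. Lyve1, a hyaluronan receptor of resident macrophages and lymphatic vessels, read 7.79 in MHCII+ and 3.08 in MerTK- macrophages, where it lay 1.59 under the floor. The difference was 4.71 as deposited and at least 8.67-fold against the floor. Cd163, the macrophage receptor that clears haptoglobin–haemoglobin complexes, had values of 6.49 and 4.15, a difference of 2.34 as deposited and of at least 3.52-fold against the floor. With MerTK- values under the floor, neither gene has an exact place among all genes. In the cell pools measured here, fewer cells that carry a transcript and less transcript per cell cannot be told apart.

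Among the scavenger receptors proper, Lrp1 and Msr1 passed 2-fold towards MHCII+ macrophages and were far above the floor in both populations. Lrp1, a very large endocytic receptor of the LDL receptor family, read 14.22 in MHCII+ and 12.70 in MerTK- macrophages (2.86-fold). Msr1, the class A receptor that binds modified low-density lipoprotein, read 15.69 and 14.43 (2.40-fold). The difference of Lrp1 was exceeded by 4.13% and that of Msr1 by 6.97% of genes above the floor. Both receptors were thus measured in MerTK- macrophages at values well clear of the floor, by 8.03 (Lrp1) and 9.75 (Msr1), unlike the 4 resident markers.

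Stab1, Cd36 and Scarb1 leaned the same way by less than 2-fold. Stab1, the class H receptor stabilin-1, which takes up SPARC and acetylated lipoprotein, read 10.34 in MHCII+ and 9.53 in MerTK- macrophages (1.75-fold). Cd36, a class B receptor for long-chain fatty acids, oxidised lipoprotein and thrombospondin, had values of 12.99 and 12.23 (1.69-fold). Scarb1, the class B receptor for high-density lipoprotein, had values of 9.36 and 8.64 (1.65-fold). These 3 differences lay between 0.73 and 0.81 and were exceeded by 16.5% to 19.0% of the genes above the floor. The 4 hybridization controls, transcripts added in equal amounts to every array, differed in the other direction by a median of 0.93. Centring on these controls raised the differences of Stab1, Cd36 and Scarb1 to 1.74, 1.69 and 1.66.

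Marco, a class A receptor with a collagen-like stalk that binds bacteria and is known from alveolar and splenic marginal zone macrophages, was near the floor on both arrays. It read 4.53 in MHCII+ and 4.83 in MerTK- macrophages, 0.30 and 0.16 above the floors. The difference was -0.30, and neither value passed the stricter floor at the 99th percentile of the sensory receptor genes, 4.83 on the MHCII+ and 5.24 on the MerTK- array. Msr1, of the same class, was far above the floor in both populations.

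**Figure D2:**
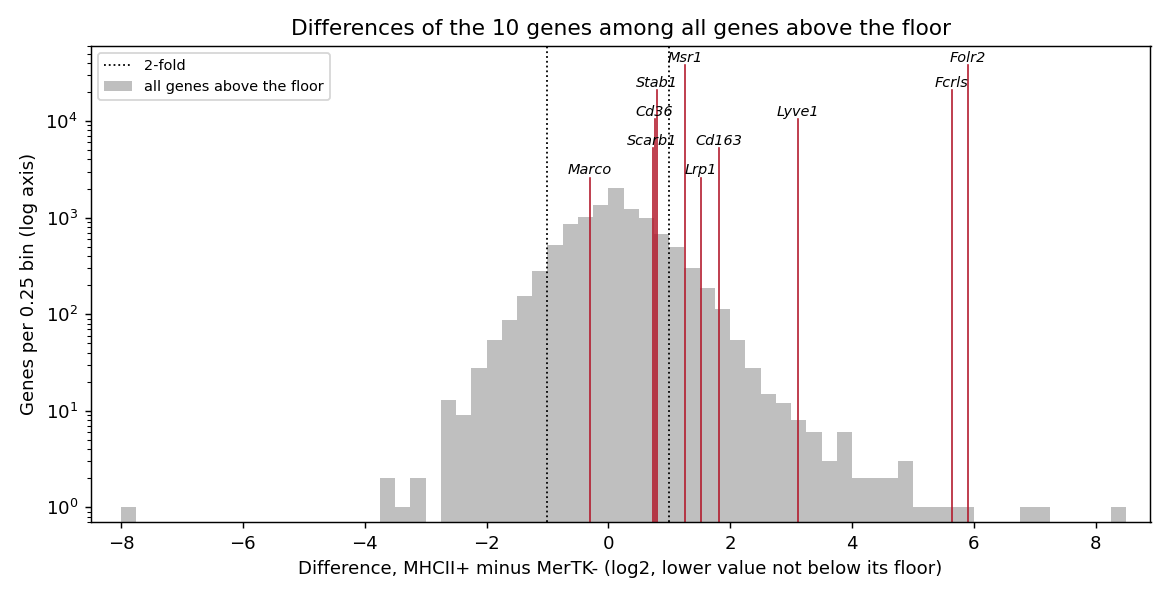
Histogram of the difference (MHCII+ minus MerTK-, log2, lower value set no lower than its floor) over the 10521 genes above the floor, on a log axis of gene number, with red lines at the 10 genes and dotted lines at 2-fold. Folr2 (5.90) and Fcrls (5.63) lie in the far right tail, Lyve1 and Cd163 stand at their lower bounds, and Marco (-0.30) is the only member left of 0.

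The relatives of Folr2 and Fcrls measured on the arrays were under the floor or less than 2-fold apart against it. Folr1, the other folate receptor listed, was not above the floor, with 3.35 in MHCII+ and 3.46 in MerTK- macrophages. Of 5 Fc receptor-like genes, 2 were above the floor, Fcrl1 (4.89 and 4.98) and Fcrlb (5.40 and 4.18), and 0 were at least 2-fold apart against the floor. Stab2, the second stabilin and a hyaluronan receptor of sinusoidal endothelium, had values of 1.63 and 1.64, under the floor. Of the 12 measured genes of the LDL receptor family other than Lrp1, 5 were not above the floor, among them Lrp2 and Lrp1b. Lrp12 (9.70 in MHCII+ and 7.93 in MerTK-) and Lrp6, a co-receptor of Wnt proteins (7.81 and 6.03), passed 2-fold towards MHCII+ macrophages, while Sorl1, a sorting receptor of endosomes, was 4.39-fold higher in MerTK- macrophages (11.42 and 13.55).

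Most scavenger receptors outside the 10 genes were not above the floor. Of 19 measured, 8 were above the floor and 2 of these passed 2-fold towards MHCII+ macrophages. Their median difference against the floor was -0.10, and 0.83 once the arrays were centred on hybridization controls. Mrc1, the mannose receptor, was 16.1-fold higher (14.60 in MHCII+ and 10.59 in MerTK-), and Cxcl16, a membrane chemokine that also binds oxidised lipoprotein, was 6.27-fold higher (14.79 and 12.14). Cd14, the lipopolysaccharide co-receptor (16.95 and 17.29), Cd44, a hyaluronan receptor (16.58 and 16.92), Olr1, the lectin-like receptor of oxidised lipoprotein (11.74 and 12.14), and Scarb2, a lysosomal class B protein (11.66 and 12.34), were lower in MHCII+ macrophages by less than 2-fold. The class A relatives Scara3 and Scara5 were not above the floor, and Colec12 (4.81 and 3.56) was near it. Cd68 and Clec7a had no named probe set here.

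Other genes of resident macrophages moved with the 4 resident markers. Of 19 measured, 17 were above the floor, and 15 were above it on the MerTK- array. All 17 had the higher value in MHCII+ macrophages, which the floor rule fixed for Timd4 and Vsig4, under the floor in MerTK- macrophages. In that direction 12 passed 2-fold, beside 11.8% of all genes above the floor. Mertk, by which the MerTK- cells were sorted, was among the 12, so its direction was set by the sort. Their median difference was 2.08 against the floor. Cbr2, a carbonyl reductase, was 26.8-fold higher (10.60 in MHCII+ and 5.85 in MerTK-), Pf4, a chemokine also stored in platelets, 21.8-fold (13.40 and 8.95) and the growth factor gene Igf1 13.6-fold (11.46 and 7.70). Timd4, a phosphatidylserine receptor of embryonic resident macrophages that the study counts with Cd163 and Folr2 as a mark of MerTK+ cells, was near the floor (4.65 and 4.48). Cd209f (4.10 in MHCII+ and 4.57 in MerTK-) and Fcna, also genes of resident macrophages, were not above the floor on either array. In values over the 2 arrays, the genes outside the 10 that lay nearest to Folr2 were Cd72 (10.24 in MHCII+ and 5.37 in MerTK-), Ccl17 (10.10 and 5.33) and Ppbp (9.69 and 4.54), at distances of 0.77 to 0.90 on the log2 scale. Nearest to Marco were Apol10b, Gpr3 and Btd, at distances of 0.018 to 0.021.

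**Figure D3:**
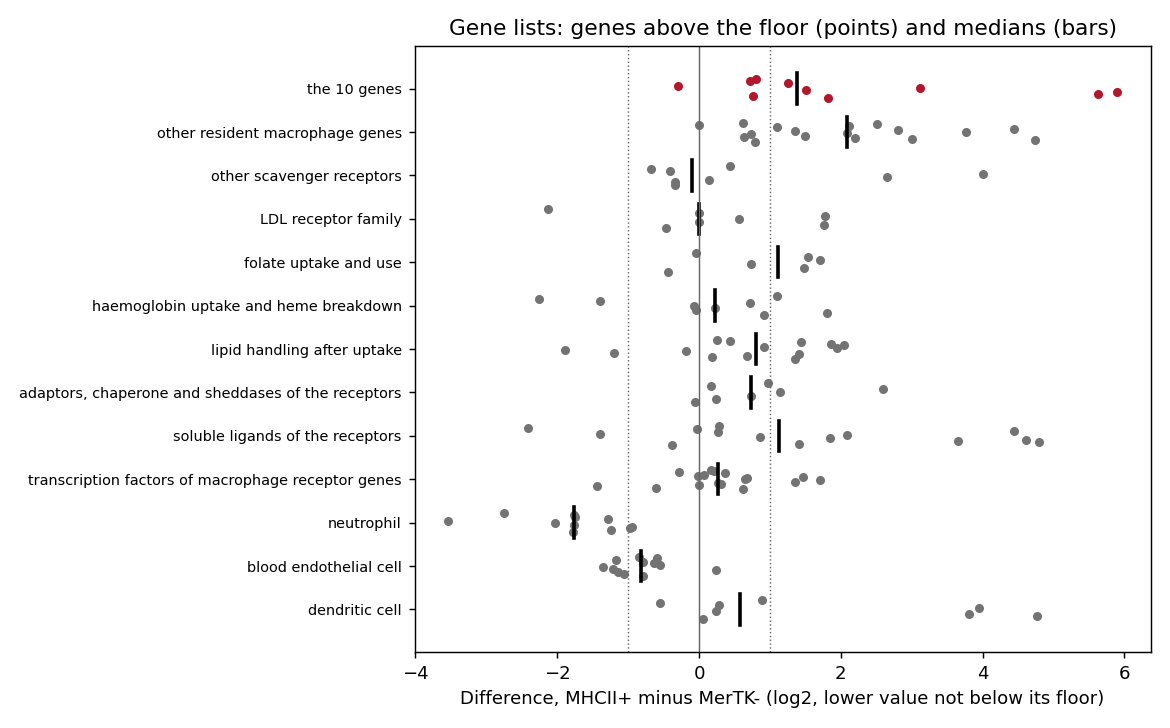
Difference (MHCII+ minus MerTK-, log2, lower value set no lower than its floor) of every gene above the floor in the 10 genes and 12 other lists, with the median of each list as a black bar and dotted lines at 2-fold. The 10 genes (median 1.39) and the other resident macrophage genes (2.08) lie to the right, and neutrophil (-1.76) and blood endothelial genes (-0.81) to the left, which became -0.82 and 0.12 when centred on hybridization controls.

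Genes that act on what the receptors bring in went both ways. For haemoglobin, 9 of 10 genes were above the floor, 2 passed 2-fold upwards and 2 downwards in MHCII+ macrophages. Blvrb, which reduces the biliverdin made from heme, was 3.48-fold higher (10.17 in MHCII+ and 8.37 in MerTK-) and the heme transporter gene Slc48a1 2.15-fold higher (10.86 and 9.76). Slc40a1, the iron exporter ferroportin, was 4.78-fold lower in MHCII+ macrophages (6.81 and 9.07), and Hp, the haptoglobin that CD163 clears and that neutrophils also store, 2.62-fold lower (15.68 and 17.07). Hmox1, heme oxygenase, was 17.58 and 16.86. The receptor Cd163 was thus higher in MHCII+ macrophages while the transcript of its ligand Hp was lower. The list median of 0.22 turned to -0.28 after centring on housekeeping genes.

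For lipids, all 14 measured genes were above the floor, with 6 at least 2-fold higher, 2 at least 2-fold lower and a median difference of 0.80. Lpl, lipoprotein lipase, was 4.13-fold higher (11.77 in MHCII+ and 9.72 in MerTK-), the fatty acid carrier gene Fabp5 3.85-fold (11.47 and 9.53) and the cholesterol ester hydrolase gene Nceh1 3.63-fold (13.62 and 11.76). Fabp4, a carrier of fat cells, macrophages and capillary endothelium, was 3.70-fold lower in MHCII+ macrophages (13.72 and 15.61), and the tetraspanin gene Cd9 2.29-fold lower (14.49 and 15.69). Folate genes gave 3 of 6 above the floor that passed 2-fold upwards and 0 downwards, with a median difference of 1.11. That median was 0.61 after centring on housekeeping genes and -0.0452 with no floor, over all 9 measured genes. The 3 genes were Slc19a1, the reduced folate carrier (7.05 and 5.51), and the one-carbon enzymes Shmt2 (7.74 and 6.04) and Mthfd1 (6.65 and 5.17). Of 10 hyaluronan genes 4 were above the floor, and 0 of them were at least 2-fold apart.

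Among the partners of the receptors, Dab2, an adaptor that links LDL receptor family members to clathrin, was 6.06-fold higher (16.39 in MHCII+ and 13.79 in MerTK-), and Chid1, a protein that binds stabilin-1, 2.20-fold higher (6.32 and 5.18). Lrpap1, the chaperone of LRP1, leaned the same way (12.47 and 11.49). Adam10 (12.67 and 12.73) and Adam17 (13.52 and 13.28), proteases that can cut CD163 and LRP1 from the cell surface, were less than 2-fold apart. Soluble ligands had 7 of 14 genes at least 2-fold higher and 2 at least 2-fold lower, with a median of 1.13. Of complement C1q, C1qa was 27.9-fold (14.59 and 9.79) and C1qc 24.4-fold higher (12.40 and 7.79), and Sparc, a matrix protein that stabilin-1 takes up, was 5.30-fold lower (8.61 and 11.01). Apoe (18.60 and 17.19), Pf4 and Gas6 stand in more than 1 list.

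Of 17 measured transcription factor genes that are known to act on macrophage receptor genes, 3 passed 2-fold upwards and 1 downwards in MHCII+ macrophages, with a median difference of 0.27 that turned to -0.19 after centring on housekeeping genes. Mef2c was 3.25-fold higher (11.74 and 10.04), Nr1h3, the oxysterol receptor LXR alpha, 2.77-fold (7.53 and 6.06) and Maf 2.56-fold (10.78 and 9.42). Cebpb, a factor of inflammatory myeloid genes, was 2.72-fold lower (11.92 and 13.37). Spi1, which encodes PU.1 (18.67 and 18.94), Pparg, a fatty acid receptor that acts on Cd36 (9.10 and 9.03), and Atf3 (16.54 and 15.93) were less than 2-fold apart.

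Genes beside the members on the chromosome, chosen after the members' values were seen, were measured for 17 of 20 neighbouring places. Of these 17 genes, 8 were above the floor, and 2 passed 2-fold towards MHCII+ macrophages, Inppl1 beside Folr2 (8.89 and 7.47) and Rnf141 beside Lyve1 (10.60 and 8.95). Both differences, 1.42 and 1.65, were smaller than those of Folr2 and Lyve1. The remaining 6 above the floor, among them Stat6 beside Lrp1 (13.10 and 12.89), were less than 2-fold apart. Cd5l, a secreted scavenger protein of tissue macrophages that lies beside Fcrls, was not above the floor (3.50 and 3.31).

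Transcripts of other cells moved on the arrays beside these genes, and their part in the results was not tested. All 11 neutrophil markers above the floor, of 13 measured, were lower in MHCII+ macrophages, 9 of them by 2-fold or more. For Ltf (4.11 and 5.17) and Elane (4.14 and 5.20), not among the 9, the floor rule fixed that direction. Their MHCII+ values were under the floor. List medians were 12.10 in MHCII+ and 13.86 in MerTK- macrophages. The list's median difference of -1.76 became -0.82 after centring on hybridization controls. Ngp (8.62 and 12.16), Wfdc21 (10.60 and 13.34) and Mmp9 (12.34 and 14.38) differed most. Cytotoxic lymphocyte markers had 9 genes above the floor, 9 on the MerTK- array and 5 on the MHCII+ array. Of the 9, 5 were lower by 2-fold or more in MHCII+ macrophages, led by Gzma (5.20 and 13.04), Nkg7 (3.98 and 6.84) and Gzmb (3.87 and 5.86). The MHCII+ values of Nkg7 and Gzmb were under the floor, so the floor rule fixed their direction. The T cell genes Cd4 (6.00 and 5.62), Cd247 (4.74 and 4.69) and Cd3d (4.46 and 4.78) were above the floor and less than 2-fold apart. Cd3e, Cd3g and Cd8a were not above it. As background, Cd36 is also used by capillary endothelium and cardiomyocytes, Lyve1, Stab1 and Scarb1 by endothelium, and Lrp1 by fibroblasts.

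As deposited, markers of other heart cells mostly had the lower value in MHCII+ macrophages. Of 12 blood endothelial genes above the floor, 11 had the lower value in MHCII+ macrophages and 5 were at least 2-fold lower, with a list median of -0.81 that turned to 0.12 after centring on hybridization controls. Esam (5.85 and 5.61) was the exception, and examples of the 5 were Gpihbp1 (6.53 and 7.88), Flt1 (8.07 and 9.29) and Robo4 (3.95 and 5.39). Cardiomyocyte genes were lower for all 9 above the floor, 5 of them at least 2-fold, led by Myl2 (7.50 and 9.71), Tnnt2 (6.75 and 8.82) and Pln (5.92 and 7.16). Fibroblast genes were at least 2-fold lower for 3 of 6, Dpt (4.21 and 6.01), Dcn (8.91 and 10.66) and Col1a1 (4.18 and 5.38). The MHCII+ values of Robo4, Dpt and Col1a1 were under the floor, so these genes could count only as lower. Of the lymphatic endothelial genes, Prox1 (3.23 and 3.40), Flt4 (4.11 and 4.49), Mmrn1, Reln, Tbx1 and Nts were not above the floor. Pdpn, which inflamed macrophages also use, was higher in MHCII+ macrophages (11.43 and 9.43). The part of these cells in the differences of the 10 genes was not tested.

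Dendritic cell markers mostly leaned the same way as the members. Of 12, 8 were above the floor, 7 of them higher in MHCII+ macrophages and Itgae (3.78 and 4.78) lower. Cd209a, Ccl22, Batf3, Siglech and Dpp4 were under the floor in MerTK- macrophages, so the floor rule fixed their direction. Itgae was under it in MHCII+ macrophages, which fixed the opposite direction. Towards MHCII+ macrophages 3 passed 2-fold, beside 11.8% of all genes above the floor. They were Cd209a (8.62 and 3.16, at least 15.4-fold), Ccl22 (8.48 and 2.60, at least 14.0-fold) and Ccl17. List medians were 4.84 in MHCII+ and 3.98 in MerTK- macrophages. Flt3 (3.83 and 2.41), Zbtb46 (3.21 and 2.88), Xcr1 (3.52 and 3.57) and Clec9a (4.02 and 2.12), also on this list, were not above the floor on either array. B cell markers had 0 of 4 genes above the floor at least 2-fold apart. Of 6 platelet and erythroid markers, Ppbp (9.69 and 4.54) was at least 32.2-fold higher, whereas the platelet integrin gene Itga2b (5.91 and 6.64) and Gp9 (4.57 and 5.04) leaned the other way, with a list median of -0.52 that turned to 0.42 after centring on hybridization controls. The part of dendritic cells in the differences of Folr2, Fcrls, Lyve1 and Cd163 was not tested.

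The scaling between the arrays decided which of the smaller differences passed 2-fold. The median difference was 0.15 over genes above the floor, 0.50 over 12 housekeeping genes and -0.93 over the 4 hybridization controls, which ran from -1.14 to -0.75. Folr2, Fcrls, Lyve1, Cd163 and Lrp1 passed 2-fold towards MHCII+ macrophages after centring on any of these. Msr1 had a difference of 0.76 after centring on housekeeping genes, and Stab1, Cd36 and Scarb1 of 1.74, 1.69 and 1.66 after centring on the hybridization controls, which also turned Marco to 0.64. Over all genes above the floor, 1243 passed 2-fold upwards and 631 downwards against the floor with the deposited scaling. After centring on the genes above the floor, these counts were 919 and 889.

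**Figure D4:**
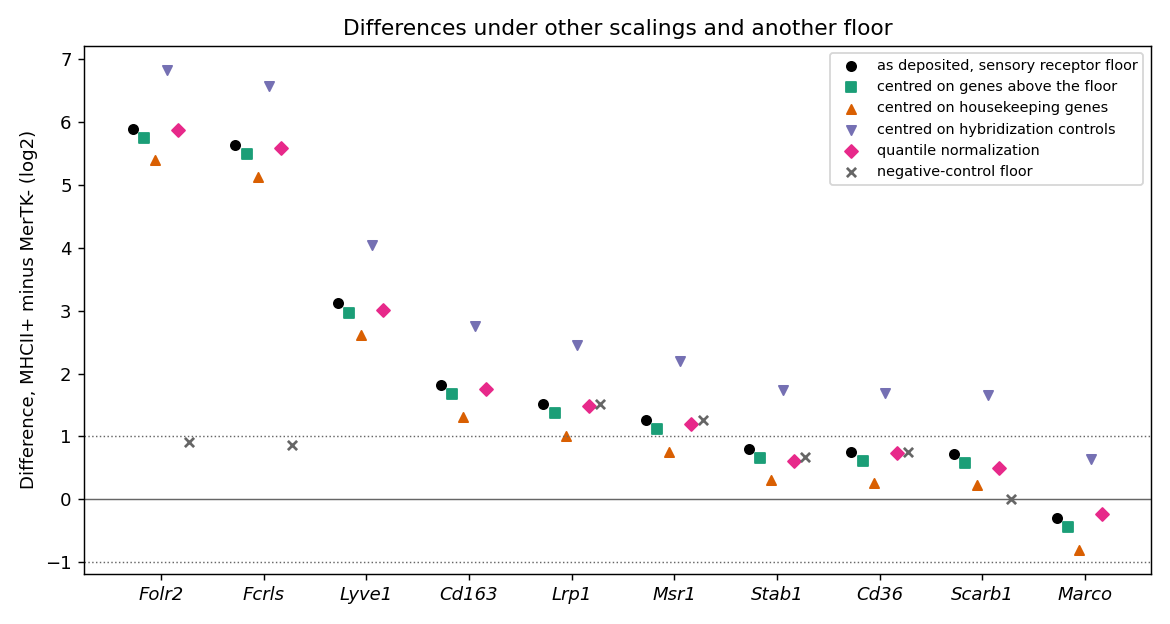
Difference (MHCII+ minus MerTK-, log2, lower value set no lower than its floor) of each of the 10 genes, with dotted lines at 2-fold. Settings are the deposited scaling with the sensory receptor floor, 4 other scalings between the arrays, and a floor from negative-control probe sets. Centring on hybridization controls takes Folr2 to 6.83 and Marco to 0.64, and the negative-control floor brings Folr2 to 0.91 and Fcrls to 0.86 and leaves no value for Lyve1, Cd163 and Marco.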

How the data were processed

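RNA of MHCII+ and MerTK- macrophages, 1 array each, was measured on mouse Clariom S arrays. The authors deposited log2 intensities, made per the study's methods by Robust Multichip Analysis with global scaling, and the submitters' notes name Affymetrix Expression Console. The series description names another array, but the probe set names are those of Clariom S. The table held 28846 probe sets. Of 22206 transcript probe sets, 19572 had 1 gene symbol and the remaining 2634 were left unnamed here. Current symbols were taken by Entrez ID from the GRCm38.p6 gene table, in which all 19572 were found. Where a gene had more than 1 probe set (55 genes), the brightest by mean over both arrays stood for it. No scaling was added.

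Differences were computed in Python 3.11.15 with pandas 2.3.3 and numpy 2.4.6, as described with the results, and the steps were tested on simulated data. The genes changed in that simulation all stayed above the floor, so folds taken against the floor were not tried there. With 1 array per population no test was made. The threshold was 2-fold, as in the study's own methods. Genes named besides the 10 were the label checks, up to 3 per list and direction with the largest difference at 2-fold or more, the 3 genes nearest to Folr2 and to Marco, and single genes chosen after their values were seen. The 10 genes and the lists were chosen with earlier results of these data known. Other scalings, floors, fold thresholds and probe set rules were tried.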

Additional observations from a re-analysis of the deposited data

How the results depend on the processing

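Over the 10 genes and 9 other settings, 79 differences stayed on their side of the 2-fold threshold without turning, though Scarb1 came to 0.0 with the negative-control floor described next, 3 fell below it, 3 passed it and 1 changed sign below it. With the floor set at the 95th percentile of 5222 negative-control probe sets (9.03 in MHCII+ and 9.66 in MerTK- macrophages), 7 genes had a value, 2 (Lrp1 and Msr1) were at least 2-fold higher, and Folr2 and Fcrls came to 0.91 and 0.86, since both MerTK- values lie under that floor. Lyve1, Cd163 and Marco gave no value there, nor did Marco with the floor at the 99th percentile. The count of members at least 2-fold higher was 5 after centring on housekeeping genes, 9 after centring on hybridization controls, 9 at a 1.5-fold and 4 at a 3-fold threshold, and 6 under the remaining settings, and 0 members were at least 2-fold lower under any. The following shares are of all genes above the floor in each setting. After centring on housekeeping genes, 447 (4.47%) were at least 2-fold higher and 2014 (20.1%) lower. Centring on hybridization controls gave 5207 (49.1%) and 62 (0.584%). The negative-control floor gave 330 (8.67%) and 291 (7.64%), and no floor 1461 (7.49%) and 988 (5.07%). Quantile normalization gave 913 (8.61%) and 855 (8.06%). A 1.5-fold threshold gave 2547 (24.2%) and 1677 (15.9%), and a 3-fold threshold 368 (3.50%) and 165 (1.57%). With no floor the folate list, over all 9 measured genes, had a median of -0.0452 and the lymphatic list, over all 8, of -0.17, in place of 1.11 and 1.00. The mean of probe sets could not change a member, since each has 1. No paired analysis was possible because each population had 1 array, and no array could be left out.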
